A study of Mus musculus with 28 samples.

Results

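The axon guidance ligands and receptors were taken as the genes whose symbols name a class 3 to class 7 semaphorin, a plexin, a neuropilin, an ephrin, an Eph receptor, a Slit, a Robo, a netrin, a netrin-G, an Unc5 receptor, Dcc or Neo1. The symbol pattern matched 72 of the 23038 genes counted, and these fell into 16 families. The pattern reads symbols and no measured value. Whole dissected brain regions of mice labelled BL6 (C57BL/6J in the study's methods) were profiled by bulk RNA sequencing of polyadenylated RNA. The Nova1 hu/hu mice carried a CRISPR/Cas9 knock-in of the human-type NOVA1 substitution I197V on both alleles, together with silent base changes used for genotyping. The Nova1 wt/wt mice carried no edited allele. NOVA1 is a neuronal RNA-binding protein that regulates alternative splicing. Libraries of the late embryonic midbrain (E18.5) numbered 6 hu/hu and 6 wt/wt, those of the midbrain at postnatal day 21 (P21) 4 and 4, and those of the P21 cortex 4 and 4, which gave 28 in all. The study reports that its RNA sequencing covered both sexes, as male-female pairs in equal numbers, and the sex of single libraries was not used here. E18.5 values below are from midbrain, and cortex values are from P21. Each library was 1 sample, the labels do not tie midbrain and cortex libraries to the same mouse, and counts per gene do not show the edited base, so the genotypes rest on the labels.

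Growing axons steer by reading ligands through receptors at the growth cone. Secreted class 3 semaphorins act through neuropilins paired with A-type plexins, whereas membrane-bound semaphorins bind plexins directly. Ephrins are tethered to the cell surface and are read by Eph receptors on the facing cell, with signals passing into both cells. Slits repel axons through Robo receptors and keep commissural axons from recrossing the midline. Netrins attract axons through Dcc and repel them through Unc5 receptors. In the mature brain many of these proteins serve synapses, blood vessels and myelinating glia rather than axon outgrowth.

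Library totals ranged from 18550922 to 35047494 counts at E18.5, from 25256326 to 45134998 in P21 midbrain and from 30423267 to 35643736 in cortex. The 72 guidance genes took 0.589% to 0.670% of the counts of a library at E18.5, 0.402% to 0.425% in P21 midbrain and 0.383% to 0.421% in cortex. Levels are given as TPM, a unit that divides counts by exon length and scales each library to the same total, so that genes can be compared with each other. The markers followed the tissue labels. The summed level of 5 midbrain markers was 158 to 194 TPM in P21 midbrain and 10.3 to 20.5 in cortex, where En1, Pax7 and Gata3 had no count in at least 1 library. The summed level of 5 cortical markers was 204 to 232 TPM in P21 cortex and 3.77 to 5.21 in P21 midbrain. Summed over 4 hypothalamic markers, the P21 midbrain libraries had 327 to 419 TPM and the cortex libraries 1.49 to 32.9, and choroid plexus markers ranged from 11.5 to 3014 TPM among the P21 midbrain libraries.

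The E18.5 libraries numbered 1 and 4, in both genotypes, stood apart from the other 8. They were the 4 lowest of 12 for 18 of 71 guidance genes tested (25.4%), against 10.8% of all 15540 genes. They were the 4 highest for 2 guidance genes (2.82%), against 4.2% of all genes. These libraries were picked after their values were seen, so both shares are a description and no test. Plxnb1 lay at 65.7 to 73.5 TPM in these 4 libraries and at 81.2 to 93.9 in the other 8, and Sema4g at 80.4 to 92.3 and 106 to 136. Summed oligodendrocyte markers were also lower in them, at 58.2 to 66.2 against 67.9 to 81.9 TPM, as were microglia markers, at 27.1 to 32.0 against 32.9 to 47.4 TPM. What the numbers 1 and 4 share is not stated, and the part of these cell types in the difference was not tested. In a refit added after seeing the data, without these 4 libraries, 32 guidance genes passed the age test in place of 31, the addition being Sema3f. Of all genes, 4945 of 16400 tested passed in that refit, in place of 5003 of 16330.

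Between E18.5 and P21, more guidance genes fell than rose in midbrain. In a comparison averaged over both genotypes, 24 of the 71 genes tested fell and 7 rose, where a call required an adjusted p under 0.05 (quasi-likelihood test of edgeR, Benjamini-Hochberg adjusted over all 16330 genes tested) and a change of at least 2-fold. Among all genes tested, 14.7% fell and 15.9% rose by the same rule. The median log2 fold change of the guidance genes was −0.42, against −0.02 for all genes. Without the fold minimum, 42 guidance genes were lower and 20 higher, beside 84.9% of all genes that passed in either direction. Ntn5, the remaining member, had too few counts to be tested. The fall was found in receptors of every ligand system (neuropilins, A-, B- and C-type plexins, Eph receptors, Robos and Dcc), and the rise in Plxnb3, Unc5b, Slit3 and 4 semaphorins.

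Between the P21 regions the differences ran in both directions. Of 72 genes tested, 9 were higher in midbrain and 13 were higher in cortex by the same rule, beside 7.82% and 7.59% of all 16345 genes. The median log2 difference of midbrain against cortex was −0.10 for the guidance genes and 0.00036 for all genes. Without the fold minimum 30 were higher and 33 lower in midbrain, beside 73.8% of all genes in either direction. Both comparisons use the P21 midbrain libraries, so that their values for 1 gene are given side by side and are not independent. The tests scale libraries by TMM factors, another scale than TPM, so log2 values below can differ from ratios of the TPM levels beside them. For family sums the age ratios were lower in TPM, as given further below. In bulk tissue, fewer cells of a type and less RNA per cell cannot be told apart, and this holds for every difference below.

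**Figure D1:**
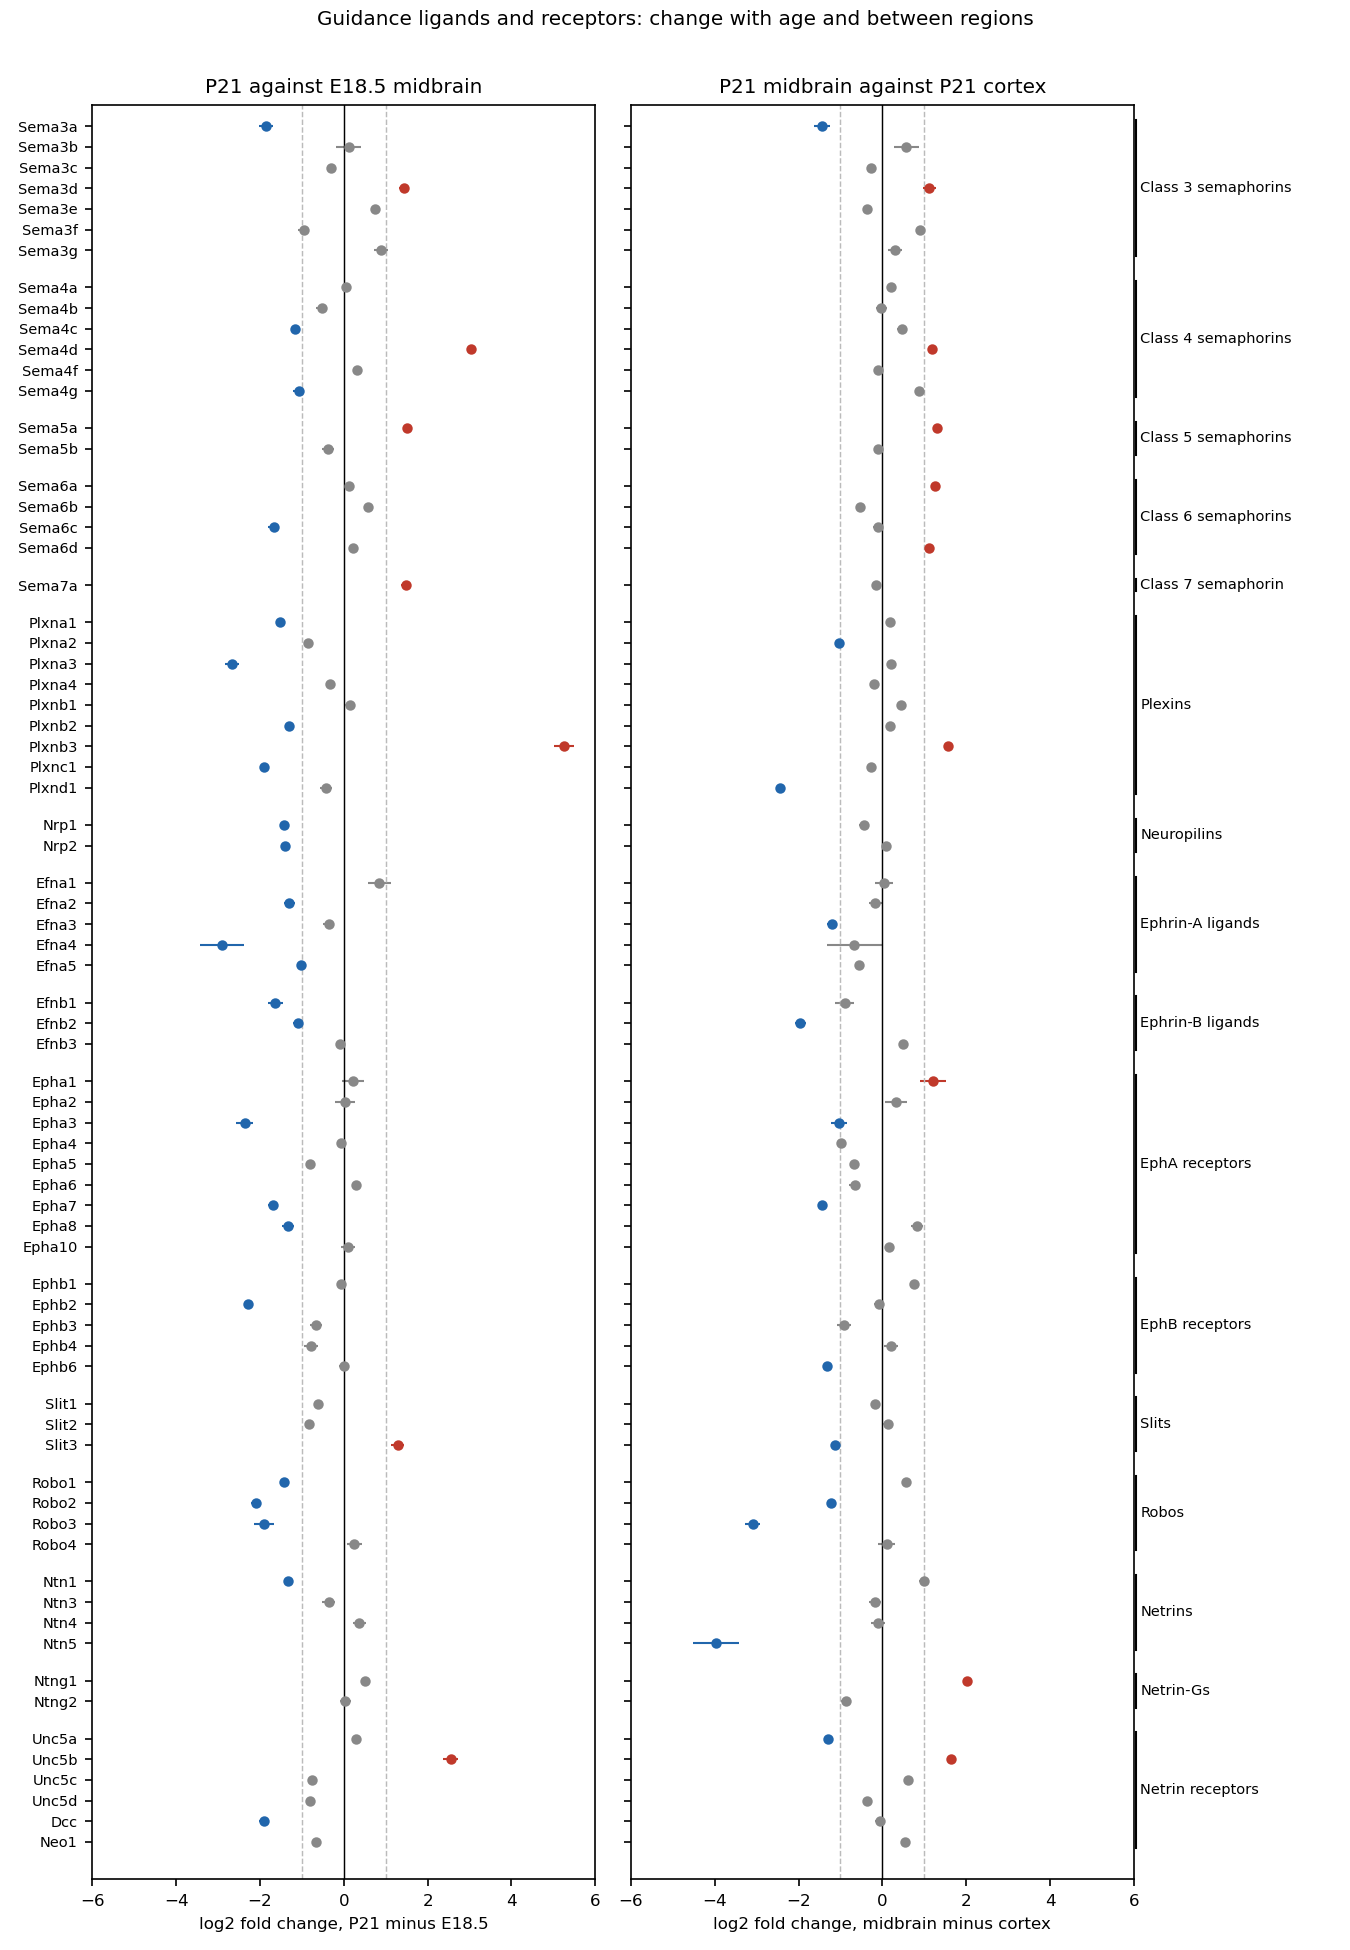
Log2 fold change of each guidance gene with its 95% confidence interval, for P21 against E18.5 midbrain on the left (71 genes, 20 libraries) and for P21 midbrain against P21 cortex on the right (72 genes, 16 libraries). Red and blue points passed an adjusted p of 0.05 and a 2-fold change (dashed lines) in the higher and lower direction, and grey points did not. On the left 24 genes lie in blue and 7 in red, with Plxnb3 at 5.25 farthest to the right, and on the right panel Robo3 at −3.10 lies far to the left, as does Ntn5, which had 1 to 10 counts a library in midbrain.

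Among the class 3 semaphorins, which are secreted, Sema3a and Sema3d moved in opposite directions. Sema3a, the founding growth-cone-collapsing semaphorin, had 13.1 to 17.7 TPM in E18.5 midbrain (median 14.5, n = 12), 2.57 to 4.36 in P21 midbrain (median 3.67, n = 8) and 7.76 to 10.4 in cortex (median 9.15, n = 8). The 3 tissues did not overlap. It fell with age by 1.86 ± 0.08 (SE) on the log2 scale and was lower in midbrain than in cortex, with a log2 difference of −1.43 ± 0.09. Sema3d had 3.07 to 4.22 TPM at E18.5, 8.02 to 10.1 in P21 midbrain and 3.003 to 4.34 in cortex. Its 8 P21 midbrain libraries lay above the other 20, with log2 fold changes of 1.44 ± 0.06 for age and 1.117 ± 0.08 for region. Sema3f, which signals through Nrp2, was the leading class 3 member in midbrain, at a median of 44.5 TPM at E18.5 and 19.5 at P21. Its age difference of −0.96 ± 0.06 stayed just short of 2-fold on the scale of the tests, and its level in cortex was 9.90 TPM. Sema3b, Sema3c, Sema3e and Sema3g did not reach 2-fold in either comparison, with log2 values between −0.38 and 0.89.

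Among the membrane-bound class 4 semaphorins the leading gene changed from Sema4g to Sema4d. Sema4d, a ligand of plexin-B1 that oligodendrocytes are known to express, had 21.4 to 27.7 TPM at E18.5, 171 to 182 in P21 midbrain and 71.1 to 78.4 in cortex. No library of 1 tissue reached into the range of another. Its log2 fold change was 3.04 ± 0.04 with age (8.24-fold, adjusted p = 8.08e-28, edgeR) and 1.17 ± 0.03 for midbrain over cortex. Sema4g fell from a median of 107 to 43.4 TPM, a log2 fold change of −1.08 ± 0.07, and Sema4c from 54.1 to 20.7 TPM, −1.17 ± 0.04. Sema4g had 20.4 to 25.3 TPM in cortex, and its regional difference of 0.88 ± 0.04 did not reach 2-fold. Sema4a, Sema4b and Sema4f did not reach 2-fold in either comparison. Sema4d made up 52.2% ± 1.0 (SD, n = 8) of the summed class 4 TPM in P21 midbrain and 37.4% ± 1.1 (SD, n = 8) in cortex, while Sema4g had led at E18.5 with 36.0% ± 1.8 (SD, n = 12).

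Class 5 semaphorins, which span the membrane, were led by Sema5b at E18.5 and in cortex and by Sema5a in P21 midbrain. Sema5a had 10.02 to 12.7 TPM at E18.5, 25.9 to 29.0 in P21 midbrain and 10.2 to 11.1 in cortex. It was thus separated upward in P21 midbrain, with log2 fold changes of 1.52 ± 0.04 and 1.31 ± 0.03. Sema5b did not reach 2-fold in either comparison. Sema6c fell with age from a median of 83.5 to 22.8 TPM (log2 fold change −1.67 ± 0.06) and had the same median, 22.8 TPM, in cortex. Sema6a and Sema6d, which signal through A-type plexins, separated the regions and not the ages. Sema6a had 73.0 to 87.9 TPM in P21 midbrain and 28.7 to 34.4 in cortex, a log2 difference of 1.26 ± 0.04, beside an age difference of 0.12 ± 0.04. Sema6d differed between the regions by 1.101 ± 0.04 and between the ages by 0.23 ± 0.04. Sema6b led the class in both P21 tissues, with a median of 105 TPM in midbrain and 142 in cortex, and passed 2-fold in neither comparison. Sema7a, which acts through integrins and plexin-C1, rose with age from 52.8 to 73.9 TPM (median 61.4) to 137 to 162 (median 149), a log2 fold change of 1.48 ± 0.06. In cortex it had 143 to 172 TPM, which overlapped P21 midbrain.

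Plexins, the semaphorin receptors, moved in opposite directions with age. Plxnb3, a class B plexin that binds Sema5a and is known from oligodendrocytes, had 1.11 to 3.93 TPM in E18.5 midbrain (median 2.68, from 36 to 206 counts), 88.4 to 96.5 in P21 midbrain (median 89.6) and 27.1 to 32.4 in cortex (median 28.4). It changed more than any other guidance gene with age, by 5.25 ± 0.12 on the log2 scale or 38.1-fold (adjusted p = 1.62e-22, edgeR), and was 2.97-fold higher in midbrain than in cortex. Plxna3, a receptor for class 3 semaphorins, went the other way. It had 92.2 to 135 TPM at E18.5, 14.9 to 16.9 in P21 midbrain and 11.6 to 14.1 in cortex, a fall of 2.67 ± 0.08 on the log2 scale (6.36-fold). Within E18.5 its libraries formed a lower set of 5 at 92.2 to 99.8 TPM and an upper set of 7 at 125 to 135. The lower set held the libraries numbered 1 and 4 of both genotypes and hu/hu library 3, and neither set reached down to the P21 range.

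Both genes lie on the X chromosome, and their promoter windows are shown because these were the plexins that moved farthest, in opposite directions. Each window covers 250 bases before and 50 after a RefSeq start (GRCm38.p6), with CpG dinucleotides in capitals. The Plxnb3 window holds 4 CpG and the Plxna3 window 18.
Plxnb3 promoter window, chrX:73756853-73757152, plus strand: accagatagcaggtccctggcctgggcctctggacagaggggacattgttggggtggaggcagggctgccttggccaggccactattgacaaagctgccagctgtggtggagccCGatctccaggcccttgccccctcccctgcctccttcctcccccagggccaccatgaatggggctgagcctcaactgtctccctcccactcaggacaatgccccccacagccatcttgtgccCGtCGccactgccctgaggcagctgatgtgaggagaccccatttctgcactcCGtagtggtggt
Plxna3 promoter window, chrX:74328816-74329115, plus strand: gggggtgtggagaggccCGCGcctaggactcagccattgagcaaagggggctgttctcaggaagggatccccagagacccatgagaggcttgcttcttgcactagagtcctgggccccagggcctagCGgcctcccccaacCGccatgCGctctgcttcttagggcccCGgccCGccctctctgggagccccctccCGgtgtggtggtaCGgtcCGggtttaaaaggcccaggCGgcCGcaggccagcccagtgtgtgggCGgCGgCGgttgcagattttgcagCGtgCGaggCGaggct
A window was called CpG-rich at an observed over expected CpG ratio of at least 0.6 and a GC content of at least 50%. Neither of these windows passed, with ratios of 0.133 and 0.526 and GC contents of 63.7% and 67.7%.

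The other plexins that changed with age fell. Plxna1 went from a median of 186 to 53.8 TPM (log2 fold change −1.53 ± 0.04), Plxnb2, which is also expressed by dividing progenitors, from 166 to 56.7 (−1.31 ± 0.05) and Plxnc1, a receptor of Sema7a, from 89.2 to 20.6 (−1.90 ± 0.05). None of the 3 differed by 2-fold between the P21 regions. Plxnd1, a receptor of Sema3e in vessels and cortical neurons, had a median of 16.04 TPM in P21 midbrain and 78.3 to 86.5 TPM in cortex. No library crossed between the regions, with a log2 difference of −2.45 ± 0.04 (5.48-fold), while E18.5 midbrain had 19.0 to 29.0 TPM. Plxna2 was 2.05-fold lower in midbrain than in cortex, at medians of 19.95 and 38.7 TPM. Plxna4 and Plxnb1 did not reach 2-fold in either comparison. A different plexin led in each tissue, Plxna1 at E18.5 with 24.3% ± 0.6 (SD, n = 12) of the summed plexin TPM, Plxnb3 in P21 midbrain with 23.9% ± 0.8 (SD, n = 8) and Plxnd1 in P21 cortex with 22.6% ± 0.7 (SD, n = 8).

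The neuropilins, ligand-binding partners of the A-type plexins, fell together. Nrp1 had 37.5 to 45.2 TPM at E18.5, 12.5 to 14.7 in P21 midbrain and 15.4 to 19.5 in cortex, and its age difference was −1.43 ± 0.04. Nrp2 had 33.6 to 44.2 TPM, 11.9 to 13.8 and 10.4 to 12.99, and its age difference was −1.41 ± 0.04. The ages did not overlap for either gene, and neither differed by 2-fold between regions. Over the 9 plexins the median summed TPM went from 761 to 379 in midbrain, and that of the 2 neuropilins 80.5 and 26.0.

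**Figure D2:**
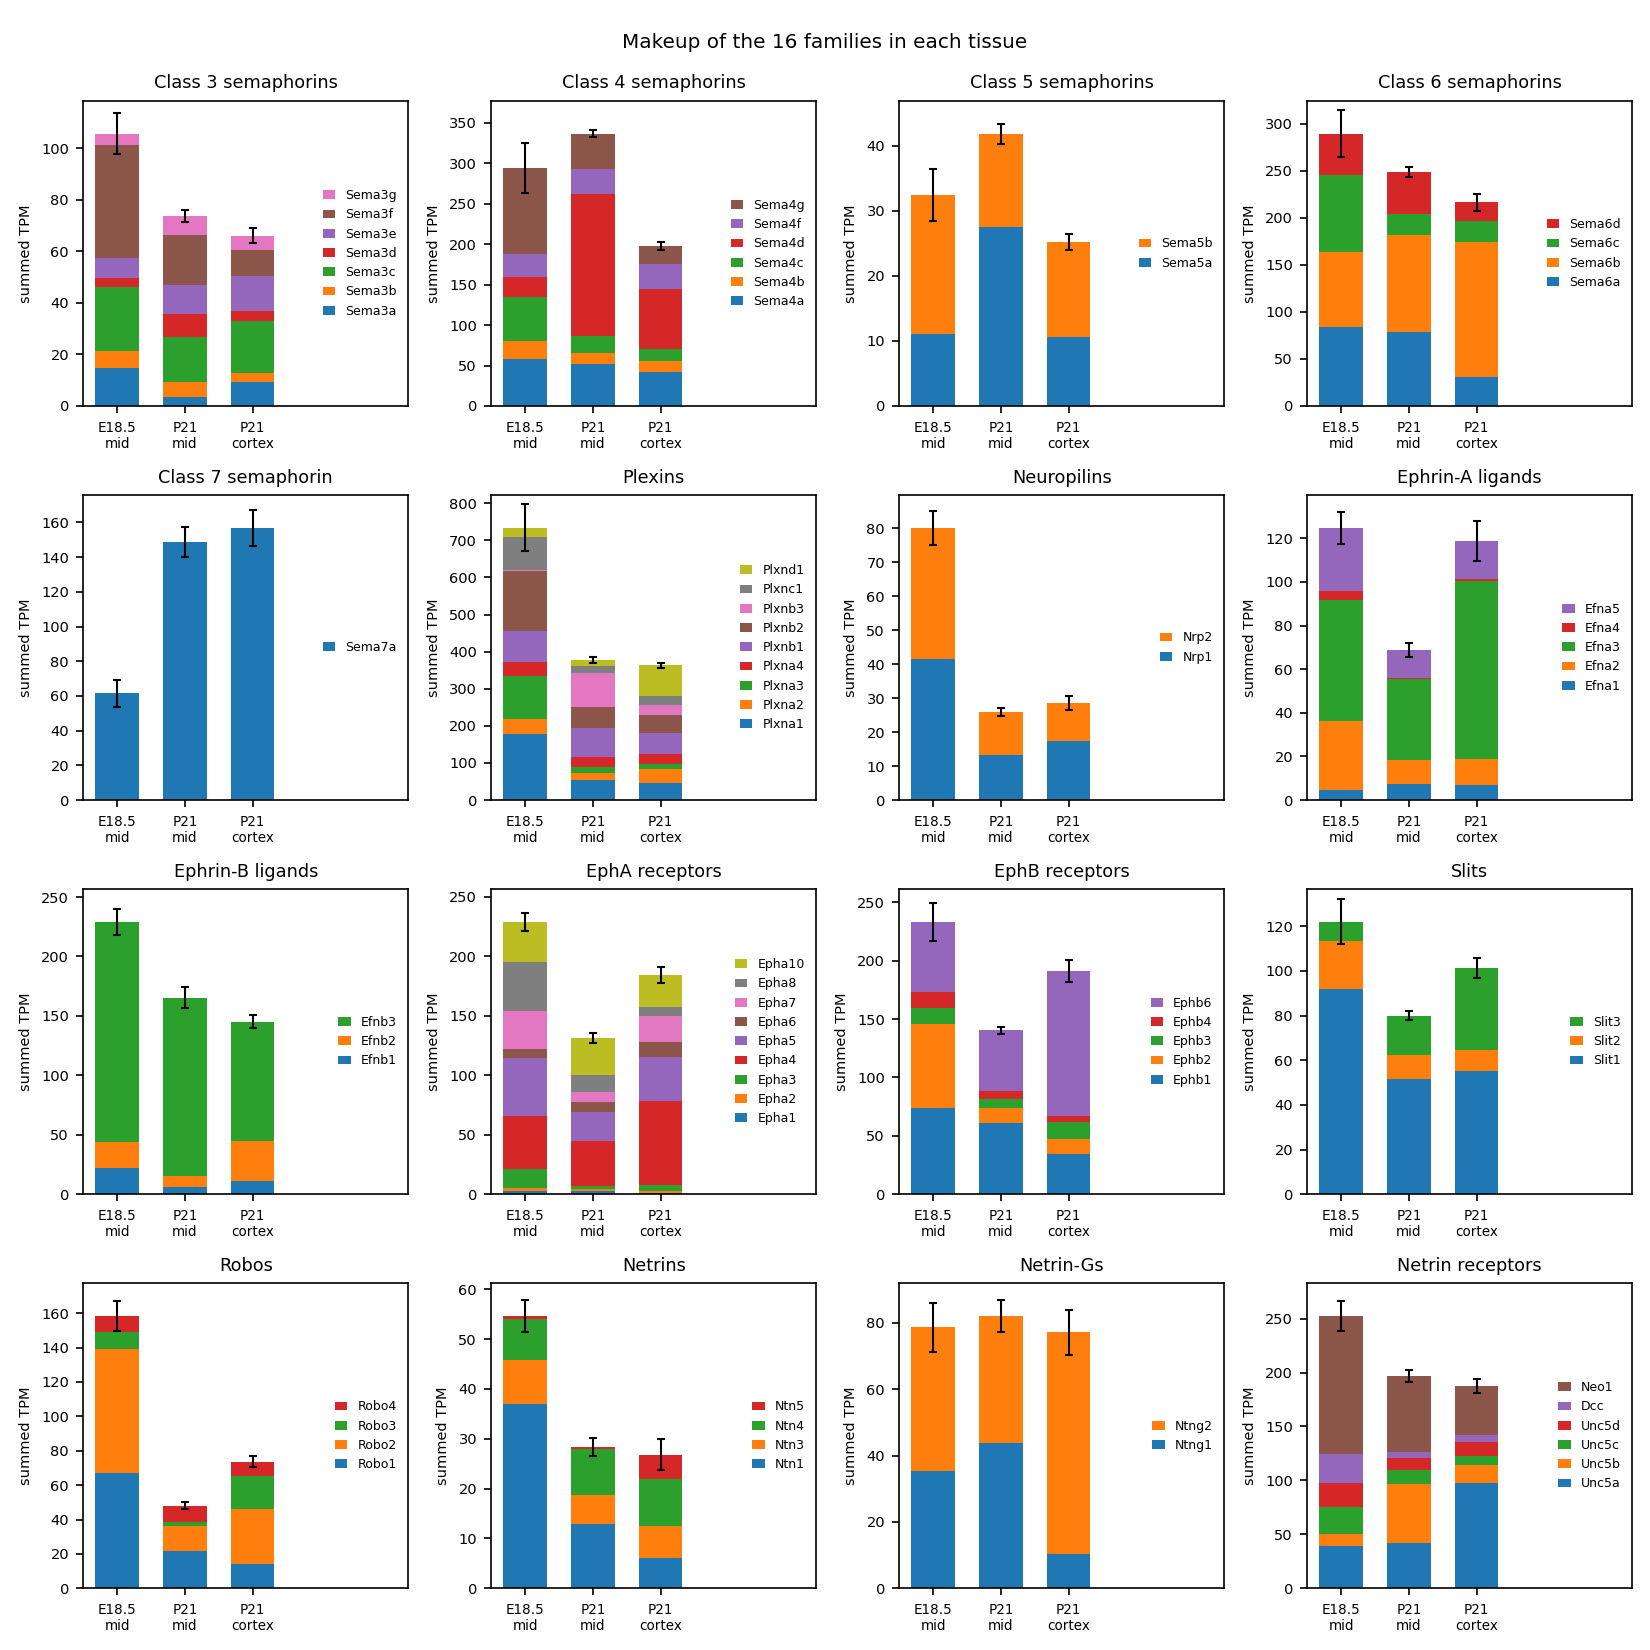
Mean TPM of each guidance gene, stacked by family, in E18.5 midbrain (12 libraries), P21 midbrain (8) and P21 cortex (8), with the bar on top showing the SD of the family sum over libraries and each vertical axis starting at 0. The plexin bar is lower at both P21 tissues and led by a different gene in each, Sema4d fills most of the class 4 bar in P21 midbrain, and Efnb3 fills 69.3% to 90.8% of the ephrin-B bars.

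Ephrins, the ligands of Eph receptors, fell with age in 5 of 8 genes. Efna2 went from a median of 31.6 to 11.3 TPM (log2 fold change −1.30 ± 0.06), Efna5, a main mapping ligand of the superior colliculus in the midbrain, from 29.2 to 12.5 (−1.02 ± 0.05) and Efnb1 from 22.2 to 5.80 (−1.63 ± 0.08). Efna4 had 2.01 to 6.53 TPM at E18.5 and 0.155 to 0.920 in P21 midbrain, on 3 to 16 counts a library at P21. It is one of the 5, but it passed the filter on low counts through the E18.5 libraries, so no fold or p is read from it. Efnb2, an arterial and synaptic ephrin, had 20.3 to 25.2 TPM at E18.5, 7.68 to 10.6 in P21 midbrain and 30.8 to 38.1 in cortex. It fell with age by 1.09 ± 0.06 and was 3.88-fold lower in P21 midbrain than in cortex. Efna3 was also lower in midbrain, at 33.1 to 40.1 against 69.7 to 95.1 TPM, a log2 difference of −1.21 ± 0.06. Efnb3, which repels corticospinal axons at the midline, was the most abundant ephrin in each tissue, at medians of 182, 151 and 98.9 TPM, and passed 2-fold in neither comparison. Efna1 did not pass either.

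Of 9 EphA receptors, Epha3, Epha7 and Epha8 fell with age, and the other 6 did not reach 2-fold. Epha3 had 13.1 to 18.7 TPM at E18.5, 2.005 to 3.47 in P21 midbrain and 4.61 to 6.20 in cortex, with log2 fold changes of −2.36 ± 0.10 for age and −1.04 ± 0.09 for region. Epha7 had 27.9 to 34.9 TPM, 7.63 to 9.47 and 20.6 to 23.1, with −1.69 ± 0.06 and −1.43 ± 0.04. For both receptors P21 midbrain was the lowest tissue and no library crossed between tissues. Epha8 had 34.2 to 50.5 TPM at E18.5 and 12.2 to 15.3 at P21 (−1.34 ± 0.07), with 5.85 to 8.88 in cortex. Epha4, a receptor for both ephrin classes, had 40.9 to 47.6 TPM at E18.5, 34.4 to 40.7 in P21 midbrain and 63.1 to 79.0 in cortex. Its regional difference of −0.99 ± 0.05 fell just short of the 2-fold mark. Epha1 was higher in midbrain than in cortex at low levels, with medians of 2.39 and 1.06 TPM and a log2 difference of 1.21 ± 0.15. Epha2, Epha5, Epha6 and Epha10 reached 2-fold in neither comparison.

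Of 5 EphB receptors, Ephb2 passed the 2-fold rule with age and Ephb6 between the regions, and Ephb1, Ephb3 and Ephb4 passed in neither comparison. Ephb2, a receptor of commissural axons and excitatory synapses, had 63.9 to 80.2 TPM at E18.5, 11.04 to 13.5 in P21 midbrain and 11.2 to 14.9 in cortex. It fell by 2.30 ± 0.05 on the log2 scale (4.91-fold), and the P21 regions overlapped. Ephb6, which lacks kinase activity, had 51.3 to 70.9, 47.6 to 55.7 and 114 to 135 TPM. Its regional difference was −1.32 ± 0.04 and its age difference −0.0043 ± 0.058. Ephb6 made up 64.9% ± 1.2 (SD, n = 8) of the summed EphB TPM in P21 cortex, whereas Ephb1 led in midbrain, with 31.5% ± 1.6 (SD, n = 12) at E18.5 and 43.5% ± 1.7 (SD, n = 8) at P21.

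Slits, the secreted repellents, did not move together. Slit3 had 6.36 to 10.3 TPM at E18.5, 16.5 to 19.3 in P21 midbrain and 32.7 to 39.5 in cortex. It rose with age by 1.28 ± 0.07 and was lower in midbrain than in cortex, with a log2 difference of −1.123 ± 0.04. Slit1, the most abundant Slit, had medians of 94.1, 51.7 and 54.9 TPM, and Slit2 of 21.4, 10.7 and 9.31, and neither passed 2-fold in a comparison.

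Of the 4 Robos, the Slit receptors, 3 fell with age. Robo1 had 59.6 to 74.6 TPM at E18.5, 19.97 to 23.1 in P21 midbrain and 13.2 to 15.6 in cortex, a log2 fold change of −1.42 ± 0.04 with age and 0.57 ± 0.04 between regions. Robo2 had 66.6 to 83.0 TPM, 13.2 to 16.6 and 28.7 to 35.5, with −2.11 ± 0.05 and −1.22 ± 0.05. The order of Robo1 and Robo2 thus differed between the P21 regions, Robo1 being the higher in every midbrain library and Robo2 in every cortex library. Robo3, the divergent receptor that lets commissural axons cross the midline, had 6.64 to 13.8 TPM at E18.5, 1.67 to 2.86 in P21 midbrain and 14.7 to 23.1 in cortex. The cortex libraries lay above the embryonic midbrain libraries, and the P21 midbrain libraries below them. Robo3 fell with age by 1.90 ± 0.11 and was 8.57-fold lower in P21 midbrain than in cortex (log2 difference −3.10 ± 0.09, adjusted p = 4.69e-19, edgeR). Robo4, an endothelial receptor, had medians of 9.66, 9.56 and 8.64 TPM, with log2 differences of 0.25 ± 0.09 and 0.10 ± 0.10. Summed endothelial markers, which are 4 genes, had medians of 146, 111 and 92.1 TPM.

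Netrins, the chemoattractants, were led by Ntn1 in midbrain. Ntn1 had 33.1 to 42.4 TPM at E18.5, 11.7 to 14.01 in P21 midbrain and 5.24 to 7.44 in cortex. It fell with age by 1.33 ± 0.05, and its regional log2 difference of 0.997 ± 0.060 lay just under the 2-fold mark although no library crossed between regions. Ntn5 was close to the counting limit in midbrain, with 1 to 14 counts a library at E18.5 and 1 to 10 at P21, against 50 to 120 counts in P21 cortex. In TPM this was 0.0769 to 0.591 in P21 midbrain and 3.05 to 7.32 in cortex, and no midbrain library reached the cortex range. It is one of the 13 genes counted as higher in cortex, but it passed the filter on low counts through the cortex libraries, so no fold or p is read from it. The span of Ntn5 overlaps that of Sec1, which had 0.263 to 0.905 TPM in P21 midbrain and 0.627 to 1.56 in cortex, and counting is not stated to use strand, so reads of the 2 genes could be shared. Ntn3 and Ntn4 reached 2-fold in neither comparison.

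The promoter windows of Robo3 and Ntn5 are shown in the same form, CpG in capitals, because every cortex library lay above every midbrain library for both genes. This trait is not particular to them, and Plxnd1, Slit3, Unc5a and Ephb6 are among the other guidance genes that had it. The Robo3 window holds 17 CpG and passed as CpG-rich at the threshold ratio of 0.6, and the Ntn5 window holds 3, at a ratio of 0.132. The Robo3 window lies inside the gene span, which reaches 37433436, so its outermost start is not covered.
Robo3 promoter window, chr9:37433126-37433425, minus strand: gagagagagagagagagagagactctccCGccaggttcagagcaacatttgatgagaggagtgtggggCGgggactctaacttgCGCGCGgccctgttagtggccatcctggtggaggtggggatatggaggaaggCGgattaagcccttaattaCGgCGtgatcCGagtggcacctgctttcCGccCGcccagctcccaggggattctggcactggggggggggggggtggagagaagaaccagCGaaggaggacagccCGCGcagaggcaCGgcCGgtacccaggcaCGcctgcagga
Ntn5 promoter window, chr7:45683772-45684071, plus strand: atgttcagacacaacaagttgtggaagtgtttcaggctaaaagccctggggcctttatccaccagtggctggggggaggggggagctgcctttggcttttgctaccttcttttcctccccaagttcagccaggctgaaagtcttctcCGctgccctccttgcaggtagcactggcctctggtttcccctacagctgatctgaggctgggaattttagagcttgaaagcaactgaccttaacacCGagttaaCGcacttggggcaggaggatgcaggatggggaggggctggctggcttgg
Of the 72 guidance genes 62 matched a RefSeq promoter entry among the windows compared, with 78 windows in all. Windows on the chromosome that holds Dcc and Sema6a were left out of the comparison, so neither of these genes could match. Of these windows 57.7% were CpG-rich, beside 46.3% of the 19040 windows of counted genes and 33.5% of all 32851 windows compared, and 2.56% held TATAAA on either strand, beside 12.1% and 13.6%. Among genes that fell with age and had a window, 15 of 21 guidance genes (71.4%) had a CpG-rich one, beside 60.4% of all genes that fell. Among those that rose it was 4 of 7 (57.1%), beside 52.9%, and among those not called 21 of 33 (63.6%), beside 70.6%. Between the regions it was 4 of 8 (50%) of those higher in midbrain, beside 42.7%, 10 of 13 (76.9%) of those higher in cortex, beside 51.5%, and 26 of 41 (63.4%) of those not called, beside 69.3%.

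Netrin-Gs, synaptic relatives of the netrins, took opposite sides of the 2 regions. Ntng1 had 39.5 to 50.3 TPM in P21 midbrain and 9.89 to 10.9 in cortex, a log2 difference of 2.02 ± 0.05 (4.05-fold), the largest toward midbrain among the guidance genes. Ntng2 had 34.9 to 40.7 and 58.8 to 76.8 TPM, and its difference of −0.88 ± 0.06 stayed under 2-fold. The sum of both had medians of 81.8 TPM in midbrain and 76.7 in cortex, and Ntng2 made up 86.7% ± 1.0 (SD, n = 8) of the cortical sum.

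Among the netrin receptors Dcc fell and Unc5b rose with age. Dcc, the attractive receptor, had 23.4 to 31.7 TPM at E18.5, 5.73 to 7.59 in P21 midbrain and 5.43 to 7.09 in cortex, a log2 fold change of −1.91 ± 0.06 with age. The P21 regions overlapped. Unc5b, a repulsive receptor also known from vessels and oligodendrocytes, had 8.03 to 15.02 TPM, 46.3 to 63.0 and 15.7 to 18.3. It rose by 2.55 ± 0.09 on the log2 scale (5.84-fold) and was 3.10-fold higher in midbrain than in cortex. Unc5a was the cortical member of the family, with 39.7 to 45.7 TPM in P21 midbrain and 88.6 to 107 in cortex, a log2 difference of −1.29 ± 0.04. Neo1, which also binds repulsive guidance molecules, had medians of 124, 70.1 and 45.2 TPM, and with Unc5c and Unc5d it reached 2-fold in neither comparison.

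**Figure D3:**
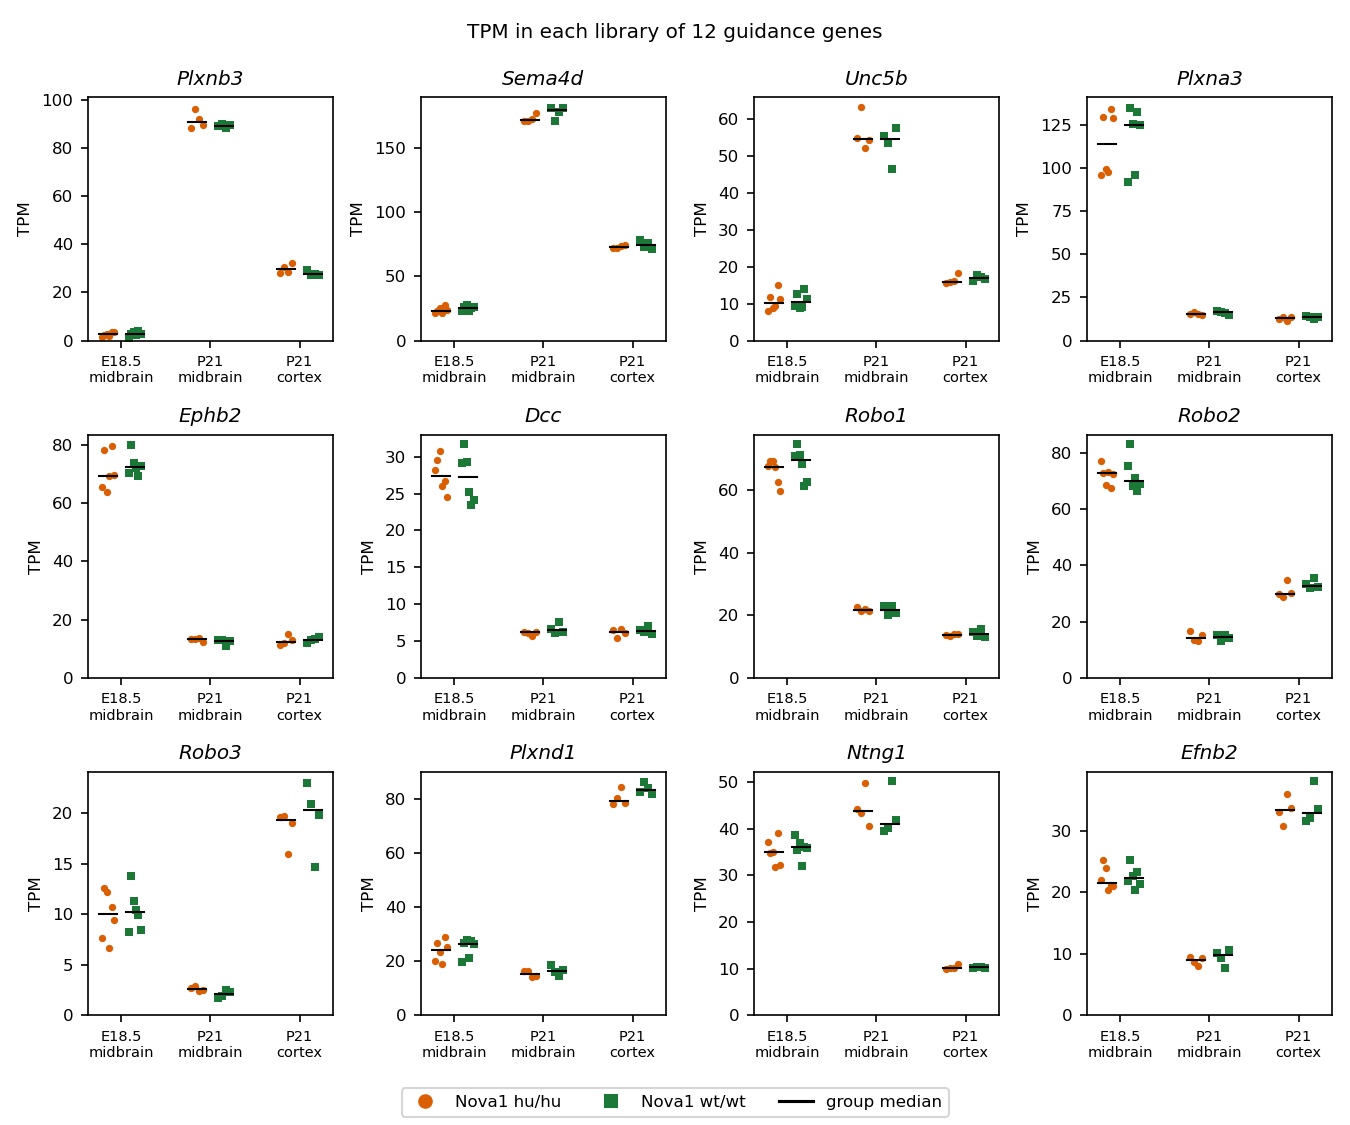
TPM of 12 guidance genes in each of the 28 libraries, with orange circles for Nova1 hu/hu, green squares for Nova1 wt/wt and a black line at each group's median, on linear axes that start at 0. Plxnb3, Sema4d and Unc5b are highest in all P21 midbrain libraries, Plxna3, Ephb2, Dcc and Robo1 are highest in all E18.5 libraries, and Robo3, Plxnd1 and Efnb2 are highest in all P21 cortex libraries, with the 2 genotypes interleaved.

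Several cell-type markers moved with these genes. All 5 oligodendrocyte markers passed as higher with age and in midbrain, and their summed level was 58.2 to 81.9 TPM at E18.5, 19820 to 22300 in P21 midbrain and 5725 to 6461 in cortex. Plxnb3, Sema4d and Unc5b had the same order of tissues, P21 midbrain above P21 cortex above E18.5 midbrain. The summed astrocyte markers had this order as well, at medians of 565, 319 and 232 TPM. Of these markers, Aqp4 and Gfap passed as higher with age and Aqp4 as higher in midbrain. Aldh1l1, the remaining astrocyte marker, was instead highest at E18.5. Its medians were 183.2 TPM at E18.5, 140.5 in P21 midbrain and 122.2 in cortex. The part of either cell type in the levels of Plxnb3, Sema4d and Unc5b was not tested. The 3 markers of immature neurons passed as lower with age and as lower in midbrain than in cortex, with summed levels of 316 to 438, 8.61 to 10.5 and 23.5 to 27.6 TPM. The 4 progenitor markers fell with age, from a median of 156 to 29.3 TPM, and 2 of 3 fibroblast markers, Col1a1 and Col1a2, fell as well, the sum going from a median of 311 to 104 TPM. The 3 microglia markers rose, from a median sum of 33.7 to 126 TPM. The part of these cells in the fall of Plxna3, Robo2, Epha3 and the other receptors was not tested. The 4 hypothalamic markers passed as higher in P21 midbrain than at E18.5 and than in cortex, and their part in the genes that were higher in P21 midbrain was not tested.

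Sums of TPM over whole families are given as a description, with no test. The sum over Robos was 149 to 182 TPM at E18.5, 45.3 to 51.3 in P21 midbrain and 69.6 to 80.2 in cortex, and its log2 ratio of P21 to E18.5 was −1.72, the lowest of the 16 families. Neuropilins followed with −1.62, plexins with −0.95, netrins with −0.95, ephrin-A ligands with −0.86, EphA receptors with −0.80 and EphB receptors with −0.73. Sema7a, the single class 7 gene, had the highest ratio, 1.28, and class 5 and class 4 semaphorins stood at 0.38 and 0.20. Between the P21 regions the class 4 and class 5 sums were higher in midbrain, with log2 ratios of 0.77 and 0.73, and the ephrin-A, Robo, EphA and EphB sums were lower, with −0.79, −0.61, −0.49 and −0.44. On TMM-scaled values, the scale of the tests, the age ratios were higher by about 0.22 and the region ratios lower by about 0.07.

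The genotype comparison asked whether the human-type NOVA1 residue changed the level of guidance transcripts. No guidance gene passed the threshold (p under 0.05 and adjusted p under 0.1, edgeR's quasi-likelihood test within a tissue) at E18.5 or in either P21 tissue, beside 0% of all genes in each tissue. At these thresholds the study reports Gkn3 as lower in hu/hu P21 midbrain, with edgeR but without naming which of its tests. The splicing changes that the study reports are not visible in counts per gene. DESeq2 called 0 guidance genes in each tissue, beside 0, 1 and 0 of all genes. At an unadjusted p under 0.05 there were 1 of 71, 2 of 70 and 2 of 72 guidance genes, beside 1.29%, 2.67% and 2.85% of all genes tested. Same-numbered hu/hu and wt/wt libraries deviated together, and a fit with a replicate block gave 7, 2 and 5, beside 5.23%, 4.6% and 5.69% of all genes in that fit. The 7 at E18.5 were Plxna1, Plxna4, Plxnb2, Sema3b, Sema3f, Sema4g and Slit2, with log2 differences of −0.35 to −0.06, and their adjusted p was 0.928 or 0.929 (edgeR). In P21 cortex the block added Efna3, Robo2 and Sema7a, with adjusted p of 0.777 to 0.796. No guidance gene passed the threshold with the block, beside 0%, 0.025% and 0% of all genes. At E18.5 21 guidance genes lay above 0 and 50 below it in hu/hu against wt/wt, beside 7714 and 7826 of all genes. The split was 36 to 34 in midbrain at P21, beside 7972 to 8000, and 23 to 49 in cortex, beside 7817 to 7950. Genes of the same libraries are not independent, so these splits are given without a test. The median log2 difference was −0.02, 0.0020 and −0.03 in these tissues, beside −0.00062, −0.00010 and −0.00071 over all genes. The test of whether the genotype difference itself differed called 0 genes between the ages and 0 between the regions, beside 0% of all genes. At an unadjusted p under 0.05 it gave 1 of 71 (Epha6) and 2 of 72 (Efna4 and Robo3), beside 1.86% and 2.28%. Efna4 is among them on few counts a library. With the block it gave 5 of 71 and 3 of 72, beside 4.54% and 3.66%.

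The genes with an unadjusted p under 0.05 in the fit without the block were these. Efna4 in P21 cortex had 0.6254, 0.996, 1.16 and 1.33 TPM in the hu/hu libraries and 0.481, 0.421, 0.452 and 0.629 in the wt/wt libraries. The highest wt/wt library lay just above the lowest hu/hu library, so the groups overlapped. On 7 to 23 counts a library, Efna4 passed the filter on low counts mainly through the hu/hu libraries. It was not tested where at least 10 counts were required in every library, so no fold or p is read from it. Robo3 in P21 midbrain had 2.70, 2.86, 2.38 and 2.52 TPM in hu/hu and 1.67, 1.93, 2.48 and 2.26 in wt/wt libraries. These groups overlapped as well, with a log2 difference of 0.33 ± 0.14 (unadjusted p = 0.0283, edgeR). An exact two-sided permutation test of TPM gave p = 0.0571, where the smallest p that 4 against 4 allows is 0.0286. Sema3c in P21 midbrain differed by 0.16 ± 0.06, with 18 to 18.9 TPM in hu/hu and 14.8 to 18.4 in wt/wt libraries (exact permutation p = 0.0857). Plxnb3 in P21 cortex differed by 0.11 ± 0.05, with 28.2 to 32.4 and 27.1 to 29.4 TPM (exact permutation p = 0.114). Sema3b in E18.5 midbrain had 3.76 to 7.23 TPM, median 5.81, in hu/hu and 6.17 to 8.74, median 6.78, in wt/wt libraries, a log2 difference of −0.33 ± 0.15 (exact permutation p = 0.0909, 6 against 6). Counted over same-numbered libraries, hu/hu was the higher in 4 of 4 for Sema3c, in 3 of 4 for Robo3 and Plxnb3, and in 2 of 6 for Sema3b. None of these 5 passed after adjustment.

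**Figure D4:**
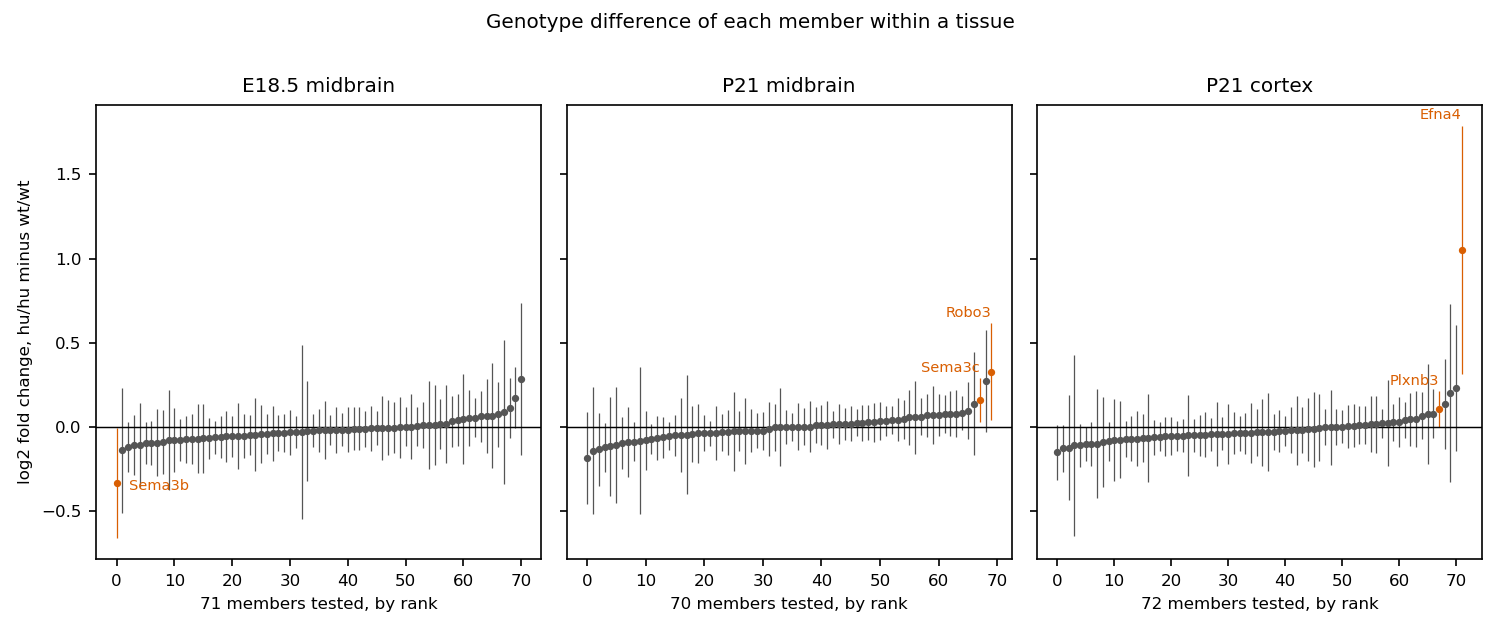
Log2 fold change of hu/hu against wt/wt for every guidance gene tested in each tissue, ordered by value, with 95% confidence intervals from edgeR and genes with an unadjusted p under 0.05 in orange. Most points lie close to 0 in each tissue, and Efna4 in P21 cortex stands farthest from it with a wide interval. Efna4 had few counts there, and no fold is read from it.

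Downstream and neighbouring guidance genes were read from the same fits. Of 38 genes of intracellular guidance signalling, 7 rose and 7 fell with age in midbrain, beside 15.9% and 14.7% of all genes. The 7 that fell included the collapsin response mediators, cytoskeletal effectors of Sema3a signalling, with Dpysl3 at −3.99 ± 0.05, Crmp1 at −2.66 ± 0.04 and Dpysl4 at −1.40 ± 0.05 on the log2 scale, and Srgap1, a Robo effector, at −1.46 ± 0.04. The 7 that rose included Mical2 at 1.98 ± 0.10 and the Rac regulators Chn1 at 1.13 ± 0.05 and Chn2 at 1.52 ± 0.05. Of 36 genes of other guidance systems, 6 rose and 8 fell, beside the same shares. Draxin, a secreted repellent, changed most, at −6.33 ± 0.09, followed by Cxcr4 at −2.98 ± 0.12 and Chl1, a partner of neuropilins, at −2.57 ± 0.05, while Nfasc, a component of nodes of Ranvier, rose by 2.82 ± 0.05. Between the regions 4 of the 38 were higher and 3 lower in midbrain, beside 7.82% and 7.59% of all genes, among them Vav3 at 2.71 ± 0.07 and Ngef, an EphA4 effector, at −2.65 ± 0.04. Of the 36, 6 were higher and 5 lower, beside the same shares, with Ret at 3.58 ± 0.04 and Met at −2.51 ± 0.12 farthest from 0. No gene of either list passed the genotype threshold in a tissue by edgeR, and at an unadjusted p under 0.05 the first list had 0, 1 and 2 genes and the second 0, 0 and 1. By direction in hu/hu against wt/wt, the first list split 6 higher to 32 lower at E18.5, 20 to 18 in P21 midbrain and 15 to 23 in cortex. The second split 16 to 20, 20 to 16 and 13 to 23.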

How the data were processed

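Polyadenylated RNA of 28 libraries was sequenced by the authors as paired-end reads, aligned to mm10 with OLego and counted per gene with Quantas. The annotation version is not given in the sources used here. The deposited values are, for 23038 genes, one expected count per gene made by the authors, beside exon length and RPKM, and the deposited RPKM follows from the counts and lengths (largest relative difference 9.34e-15), so RPKM was not used otherwise. TPM was derived from counts before rounding, divided by exon length.

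Expected counts were rounded and tested with edgeR 4.0.16 (R 4.3.3, quasi-likelihood test, TMM factors, filterByExpr), with Benjamini-Hochberg adjustment over all genes tested. Genotypes were compared within a tissue (p under 0.05 and adjusted p under 0.1). Ages (20 midbrain libraries) and regions (16 P21 libraries) were compared averaged over genotypes (adjusted p under 0.05 and at least 2-fold), and interactions at an adjusted p under 0.1. Tests were two-sided. The methods were tested on simulated data. DESeq2 1.42.0 was an alternative. The members, lists and thresholds were chosen with earlier results of these data known. Named genes were up to 12 called genes a direction, members with an unadjusted genotype p under 0.05, and the leading gene of each family. Other members are given where a sentence accounts for a family.

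Replicate numbers of the labels pair hu/hu with wt/wt libraries within a tissue: deviations of same-numbered libraries correlated at 0.256 to 0.499 at E18.5, at 0.266 to 0.300 for midbrain at P21, and at 0.252 to 0.310 for cortex. What a number marks is not stated, so p-values measure the spread between these samples. Positions and promoters come from RefSeq on GRCm38.p6, where 22959 of 23038 identifiers matched, and Draxin was matched by its identifier. Counting is not stated to use strand, and 15 members overlap another counted gene. Cerebellum libraries were not analysed here.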

Additional observations from a re-analysis of the deposited data

Results flagged for a closer look

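Over the 48 guidance genes chosen by the naming rule, in 6 groups each, 10 of 288 gene-by-group sets (3.47%) held 1 library whose gap to its nearest neighbour exceeded Dixon's critical value at the 95% level, where chance gives about 1 in 20. High libraries were Epha1 in E18.5 midbrain hu/hu library 5 (3.03 TPM, the others 1.89 to 2.30), Sema6c in the same library (107, the others 71.4 to 84.4) and Neo1 in E18.5 wt/wt library 3 (149, the others 121 to 131). In P21 midbrain, Plxna3 was high in hu/hu library 2 (16.8, the others 14.95 to 15.23) and Sema3d in wt/wt library 3 (9.65, the others 8.02 to 8.17), while Dcc was low in hu/hu library 3 (5.73, the others 6.14 to 6.21) and Epha3 in wt/wt library 4 (2, the others 2.58 to 2.68). In P21 cortex, Ntn1 was high in wt/wt library 2 (6.63, the others 5.87 to 5.98), Plxnc1 in wt/wt library 3 (26.6, the others 22.6 to 23.2) and Unc5b in hu/hu library 4 (18.3, the others 15.7 to 16.1). No genotype difference of a guidance gene differed between ages or regions by the interaction test.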

How the results depend on the processing

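The call rule moved the counts most. Without the fold minimum 62 guidance genes passed with age (20 higher, 42 lower), beside 84.9% of all genes. Between the regions 63 passed (30 higher, 33 lower), beside 73.8% of all genes. At 1.5-fold 34 passed between the regions, 15 of them higher, and the share of all genes at 1.5-fold was not counted. Leaving out each library in turn gave 30 to 31 calls with age, beside 4963 to 5073 of all genes. Between the regions it gave 21 to 24, beside 2550 to 2595 of all genes. Efna5 was lost with age without P21 midbrain hu/hu library 2 or wt/wt library 4 and with same-numbered libraries summed, and Efna4 with at least 10 counts in every library. Epha3 was lost between the regions in the hu/hu libraries alone and without cortex wt/wt library 3, midbrain hu/hu library 2 or midbrain wt/wt library 4, and Ntn5 with at least 10 counts in every library. Ntn1, Epha4 or both were gained with no filter, in the wt/wt libraries alone and without any of 10 single libraries, and Efna4 and Efnb1 in the hu/hu libraries alone. Sema3f was gained with age in the wt/wt libraries alone and without the E18.5 libraries numbered 1 and 4. With the replicate block, 0 guidance genes passed for genotype in each tissue and 0 for both interactions. Here the number paired hu/hu with wt/wt libraries within a tissue. For age and region the block gave 31 and 22, beside 5126 and 2529 of all genes. These counts of guidance genes equal those without the block, while all genes called for genotype in P21 midbrain went from 0 to 4. In the age and region fits the block joined same-numbered libraries across ages or regions, which are not stated to belong together. Same-numbered midbrain and cortex libraries at P21 correlated at −0.23 to −0.16 in hu/hu and −0.26 to −0.13 in wt/wt. The age and region fits are thus no check of the pairing.

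The age difference of Ephb6 lies at 0 and its sign was not stable. It was 0.0024 with RLE factors, 0.0026 with DESeq2, 0.0088 with no filter, 0.0031 with at least 10 counts in every library, 0.090 with the replicate block, 0.0076 with all 28 libraries, 0.059 in hu/hu libraries and 0.022 with libraries summed, and −0.023 to 0.019 with each library left out. Ntng2 went to −0.00060 with age without the E18.5 libraries numbered 1 and 4, an alternative chosen after seeing the data. Of 971 values of named genes under an alternative, 954 kept direction and side of the threshold, 7 passed newly and 10 changed sign.

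On TMM-scaled RPKM the age ratios of family sums became −0.30 for class 3, 0.42 for class 4, 0.59 for class 5, 0.0030 for class 6 and 1.5 for class 7 semaphorins, −0.73 for plexins, −1.41 for neuropilins, −0.64 for ephrin-A and −0.26 for ephrin-B ligands, −0.58 for EphA and −0.51 for EphB receptors, −0.39 for Slits, −1.5 for Robos, −0.73 for netrins, 0.28 for netrin-Gs and −0.14 for netrin receptors. The class 6 sign changed. Between the regions they became 0.69 for class 4, 0.13 for class 6 and −0.56 for EphA receptors, and the sign changed for plexins (−0.014) and netrin receptors (−0.0059). The scale itself moves these ratios. Efna4 and Ntn5 are limited by counts of 1 to 16 a library in P21 midbrain.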
